A study of Mus musculus with 11 samples.

Results

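The PAQR family is named after the progestin and adiponectin receptors, membrane proteins with several membrane-spanning helices that are unrelated to the nuclear hormone receptors. The genes described here are Paqr3 to Paqr9 with Adipor1 and Adipor2, chosen by symbol, and they make up 9 of the 24718 genes counted. The family was picked because Paqr5 was already known, from an earlier analysis of the same counts, to be lower after doxorubicin, so that its differences are given as values with no test.

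Paqr5 to Paqr9 encode membrane progestin receptors, which bind progesterone at the cell surface and signal rapidly without acting as transcription factors. Adipor1 and Adipor2 encode the receptors of adiponectin, a hormone of fat cells and of marrow stroma, and carry a ceramidase activity that turns ceramide into sphingosine. Paqr3 and Paqr4 encode Golgi proteins, of which Paqr3 holds Raf kinases and the SREBP chaperone Scap at the Golgi.

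RNA was measured in mesenchymal stem and progenitor cells of mouse bone marrow, sorted for the red reporter tdTomato. All mice were female and of the genotype Lepr-Cre;LSL-tdTomato+/-, in which Cre driven by the leptin receptor gene switches on the reporter, so the sort collects cells that express or once expressed Lepr. The DOX4X group held 4 young adult mice, treated at 8 to 10 weeks of age, that received 4 intravenous injections of doxorubicin at 5 mg/kg, spaced 1 week apart. The DOX1X group held 3 young adult mice given 1 intravenous injection of doxorubicin at 10 mg/kg. Controls were 4 mice, of an age the labels do not give, that received phosphate-buffered saline (PBS) in 4 intravenous injections. Cells were collected 8 weeks after treatment in every group. Doxorubicin is an anthracycline that damages DNA through topoisomerase II. Dose and injection number both differ between the doxorubicin groups, so their values stand side by side and do not form a dose series.

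Total counts per library were 31129352 to 36888310 in DOX4X, 33496356 to 42002065 in DOX1X and 29540422 to 42784036 in PBS libraries. Cxcl12, the chemokine of the marrow niche, is 1 of 10 marrow stroma markers listed. It stood at a CPM (counts scaled to library size) of 50090 ± 5131 (SD, n = 4) in DOX4X, 53380 ± 5928 (n = 3) in DOX1X and 53730 ± 3101 (n = 4) in PBS libraries. Lepr was at 5050 ± 464, 5408 ± 1363 and 6479 ± 1092 CPM in the same order. Of the 10 markers, 7 were below 0 and 3 above 0 in log2 fold change for DOX4X over PBS (median -0.176). The same counts held for DOX1X over PBS (median -0.02). One library carries a title that begins with DOX although its treatment label is PBS, and it was kept as PBS 4. The correlation of log2 CPM of PBS 4 was 0.9807 with DOX1X 3 and 0.9665 to 0.9756 with the other PBS libraries. It was 0.9699 with DOX1X 1, 0.964 with DOX1X 2 and 0.9588 to 0.9745 with the DOX4X libraries. The column names place PBS 1 to 4, DOX1X 1 and DOX1X 2 on flow cell 1. All 4 DOX4X libraries and DOX1X 3 were on flow cell 2. Flow cell and the DOX4X to PBS difference therefore cannot be told apart without the DOX1X libraries. A flow cell term in the model thus rests on DOX1X 3 against DOX1X 1 and DOX1X 2. In bulk RNA of sorted cells, fewer cells of a type and less RNA per cell cannot be told apart. Both doxorubicin comparisons share the same PBS libraries.

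Per base of exon, Adipor1 was the most abundant member, with a mean of 116 ± 4.96 TPM (SD over 11 libraries), a unit that scales counts by exon length and library size. Paqr7 (35.4 ± 6.53 TPM), Paqr4 (30.3 ± 3.25 TPM) and Paqr8 (25.8 ± 6.27 TPM) followed within each other's spread. Adipor2 stood at 13.8 ± 2.08 TPM and Paqr5 at 5.44 ± 2.48 TPM. Paqr9 (2.77 ± 1.59 TPM) and Paqr3 (2.13 ± 0.351 TPM) overlapped, and Paqr6 was lowest, at 0.441 ± 0.284 TPM. With the longest transcript as the length instead of all exons, Paqr3 (3.06 TPM) lay above Paqr9 (2.15 TPM).

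**Figure D1:**
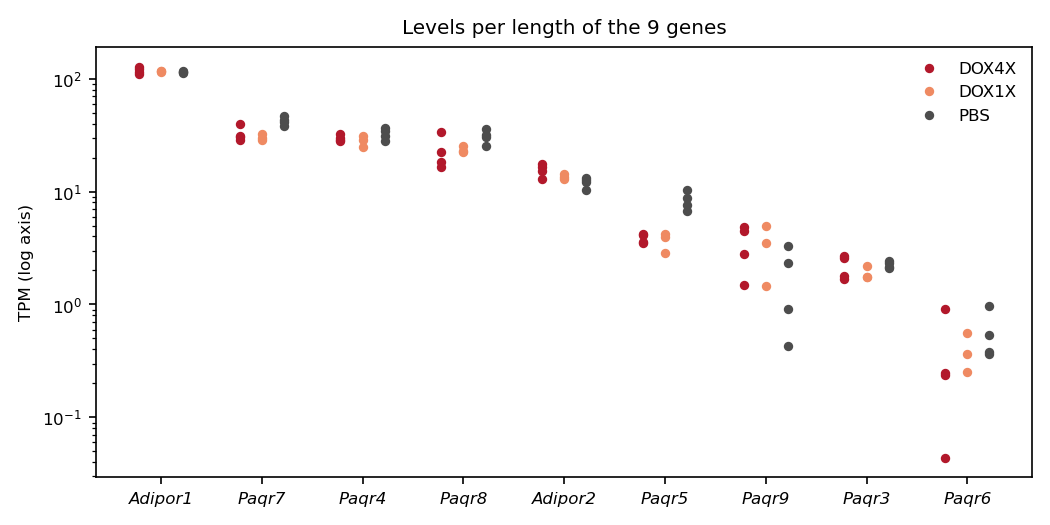
TPM of each member in each library (log axis), computed from union exon lengths. Adipor1 lies highest, at a mean of 116 TPM, and Paqr6 lowest, at 0.441 TPM.

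Paqr5, Paqr7 and Paqr8 had the lowest fitted values relative to PBS among the well-detected members, and the sequence upstream of each RefSeq start is shown so that these genes can be compared at the level of DNA. The sequences come from RefSeq on GRCm38.p6, read 5′ to 3′ on the strand of the gene, and stop before the first transcript start. Capitals mark the GC box, searched as GGGCGG and CCGCCC on both strands.

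Paqr5, chr9:62026857-62027040, - strand: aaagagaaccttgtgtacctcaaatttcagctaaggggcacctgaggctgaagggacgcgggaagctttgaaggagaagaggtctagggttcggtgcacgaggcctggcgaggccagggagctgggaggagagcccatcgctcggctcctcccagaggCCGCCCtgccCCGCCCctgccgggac

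Paqr7, chr4:134496511-134496696, + strand: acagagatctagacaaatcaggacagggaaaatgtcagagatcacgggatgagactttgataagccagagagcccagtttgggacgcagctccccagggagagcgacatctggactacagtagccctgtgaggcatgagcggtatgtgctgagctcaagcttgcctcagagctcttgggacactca

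Paqr8, chr1:20890298-20890547, + strand: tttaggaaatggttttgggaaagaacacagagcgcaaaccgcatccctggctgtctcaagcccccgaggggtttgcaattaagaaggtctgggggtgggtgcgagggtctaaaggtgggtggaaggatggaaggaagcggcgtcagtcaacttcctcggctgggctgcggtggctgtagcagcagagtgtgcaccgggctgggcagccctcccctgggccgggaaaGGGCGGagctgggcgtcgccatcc

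The Paqr5 stretch of 184 bases held 2 GC boxes at a GC content of 64.1%. The Paqr7 stretch of 186 bases held 0 at 53.2%, and the Paqr8 stretch of 250 bases held 1 at 62.0%. The word TGTTCT or its reverse complement AGAACA, the core of steroid receptor sites, was found 1 time, in the Paqr8 stretch, and in 16.1% of all windows described next. The CCAAT box (the word CCAAT on either strand) had 0 matches in the 3 stretches, against 33.8% of windows with one. The TATA box (the word TATAAA on either strand) had 0 matches too, against 12.4% of windows. Over 32851 windows of 250 bases upstream of RefSeq starts, 32.7% held a GC box and the median GC content was 52.4%. The matches in the stretches shown do not overlap each other. The windows were not cut at a transcript start, unlike the Paqr5 and Paqr7 stretches. Uncut, the 250 bases held 3 GC boxes for Paqr5, 0 for Paqr7 and 1 for Paqr8. Counts of the other words were the same as in the stretches. A RefSeq promoter was found for 8 of the 9 members.

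Paqr5, the membrane progestin receptor gamma, was at 4.21, 3.75, 3.61 and 4.55 CPM in DOX4X libraries, 3.18, 4.37 and 4.52 CPM in DOX1X libraries, and 7.61, 8.38, 11.5 and 9.47 CPM in PBS libraries. Every doxorubicin library lay below every PBS library. Taken group by group, that holds for 4.68% of all genes in DOX4X against PBS and for 3.82% in DOX1X against PBS. The log2 fold change was -1.19 (SE 0.18) for DOX4X over PBS and -1.20 (SE 0.20) for DOX1X over PBS. Paqr5 is 1 of the 26 genes called between DOX4X and PBS, which are 0.146% of 17838 genes tested, and all 26 were lower; the choice of the family rests on that call, so nothing is read from it. That total of 26 depended on single libraries: it was 0 without DOX4X 1, DOX4X 2 or DOX4X 3, 7 without DOX4X 4, 1 without DOX1X 1, 3 without DOX1X 2, PBS 1, PBS 2 or PBS 3, 47 without DOX1X 3 and 80 without PBS 4. Paqr5 stood on 120 to 167 counts in DOX4X, 130 to 172 in DOX1X and 251 to 354 in PBS libraries. Between DOX4X and DOX1X, where the same DOX4X libraries form one arm, the log2 fold change was 0.0036 (SE 0.19), also given with no test.

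Leaving out 1 library at a time gave Paqr5 values of -1.28 to -1.07 for DOX4X over PBS and -1.29 to -1.05 for DOX1X over PBS. The flow cell moves with the DOX4X to PBS difference. On flow cell 1 alone, DOX1X 1 and 2 gave a Paqr5 log2 fold change of -1.29 over the 4 PBS libraries. With flow cell as a term in the model the DOX4X to PBS value was -1.46. DOX1X 3, the DOX1X library on flow cell 2, had 4.52 CPM and lay within the range of the DOX4X libraries.

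**Figure D2:**
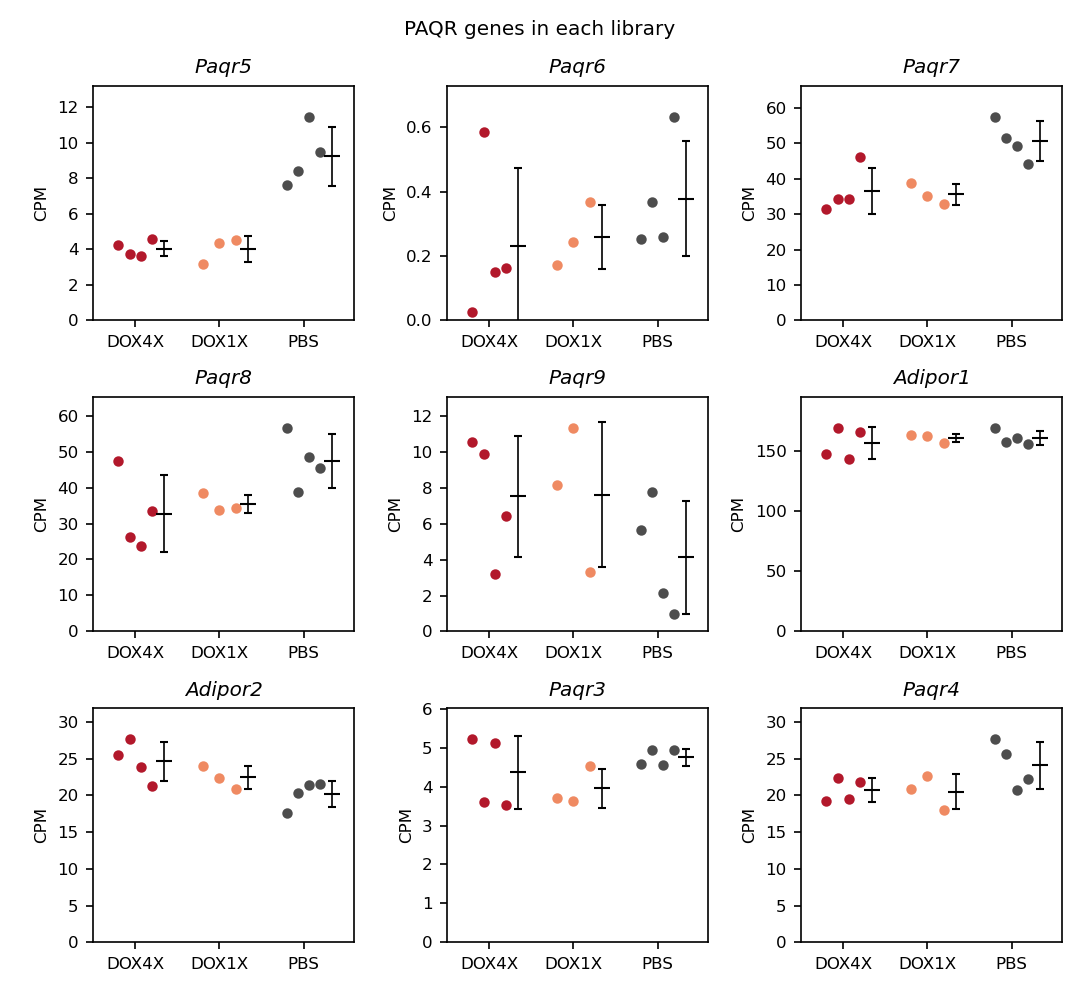
Level of each member in every library (CPM), with DOX4X left, DOX1X in the middle and PBS right; the bar beside the points of a group is its mean ± SD, cut at 0 for Paqr6. For Paqr5 the DOX4X and DOX1X points lie at 3.18 to 4.55 CPM and the PBS points at 7.61 to 11.5 CPM.

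Paqr7, the membrane progestin receptor alpha, was at 31.6, 34.2, 34.3 and 46.1 CPM in DOX4X libraries, 38.8, 35.1 and 32.9 CPM in DOX1X libraries, and 57.6, 51.4, 49.4 and 44.1 CPM in PBS libraries. All DOX1X libraries lay below all PBS libraries, while DOX4X 4 lay above PBS 4. The log2 fold change was -0.47 (SE 0.12, edgeR adjusted p = 0.148) for DOX4X over PBS and -0.51 (SE 0.13, edgeR adjusted p = 0.515) for DOX1X over PBS, neither past the threshold of 0.05. DESeq2, which called 599 genes (3.36%) between DOX4X and PBS, called Paqr7 at an adjusted p of 0.0189, and a flow cell term in edgeR brought the log2 fold change to -0.305.

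Paqr8, the membrane progestin receptor beta, was at 47.5, 26.3, 23.6 and 33.6 CPM in DOX4X libraries, 38.4, 33.9 and 34.2 CPM in DOX1X libraries, and 56.7, 38.7, 48.6 and 45.5 CPM in PBS libraries. All DOX1X libraries lay below all PBS libraries, and DOX4X 1 lay within the PBS range. Its log2 fold change was -0.53 (SE 0.19, edgeR adjusted p = 0.261) for DOX4X over PBS and -0.42 (SE 0.21, edgeR adjusted p = 0.72) for DOX1X over PBS.

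Paqr9, the membrane progestin receptor epsilon, was at 10.5, 9.89, 3.22 and 6.46 CPM in DOX4X libraries, 8.15, 11.4 and 3.34 CPM in DOX1X libraries, and 5.66, 7.78, 2.14 and 0.967 CPM in PBS libraries. The groups overlapped, and the log2 fold change was 0.86 (SE 0.59, edgeR adjusted p = 0.557) for DOX4X and 0.88 (SE 0.63, edgeR adjusted p = 0.768) for DOX1X over PBS. Red cell RNA varied alongside: the summed level of 12 erythroid markers was 1110, 903, 403 and 578 CPM in DOX4X libraries, 811, 838 and 295 CPM in DOX1X libraries, and 429, 601, 306 and 197 CPM in PBS libraries. All 12 erythroid markers had a log2 fold change above 0 for DOX4X over PBS, with a median of 1.04, and none was at 0 in all libraries. With blood-cell markers as a covariate, the Paqr9 log2 fold change was 0.0163 for DOX4X over PBS and -0.11 for DOX1X over PBS. With flow cell as a term it was 2.41 for DOX4X over PBS. The gene most like Paqr9 over the 11 libraries was Ermap, an erythroid membrane protein and 1 of the 12 markers (Pearson r of log2 CPM 0.987).

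**Figure D3:**
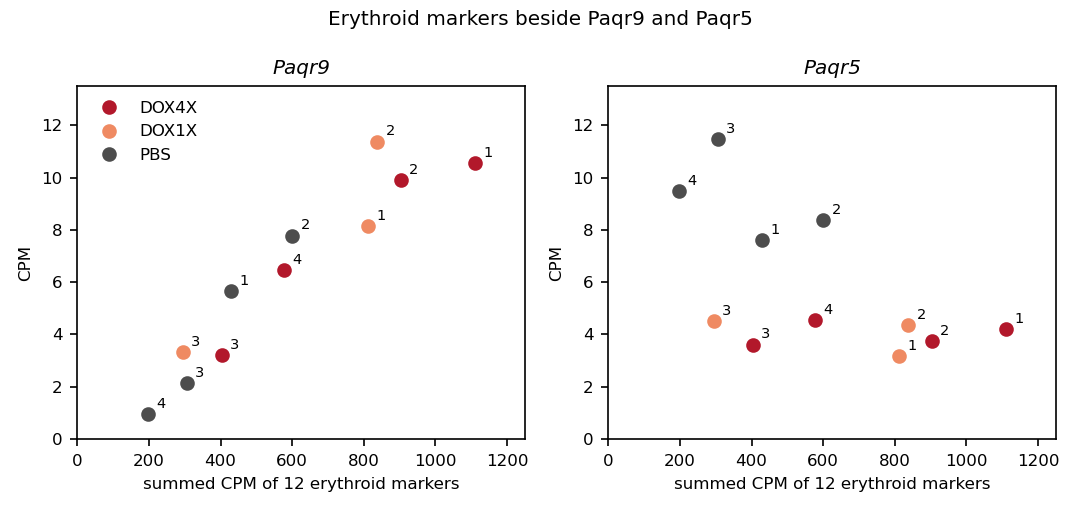
Paqr9 (left) and Paqr5 (right), in CPM, against the summed level of 12 erythroid markers (CPM), with 1 numbered point per library, coloured by group. The libraries with the most Paqr9, DOX4X 1 at 10.5 CPM and DOX1X 2 at 11.4 CPM, are among those with the most erythroid RNA. Paqr5 points lie at 3.18 to 4.55 CPM in doxorubicin libraries and at 7.61 to 11.5 CPM in PBS libraries. Erythroid sums are 403 to 1110 CPM in DOX4X, 295 to 838 CPM in DOX1X and 197 to 601 CPM in PBS libraries. A link of Paqr5 to erythroid RNA was not tested.

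Paqr6, the membrane progestin receptor delta, was close to the detection limit, with 1 to 20 counts per library. It was at 0.0275, 0.585, 0.150 and 0.164 CPM in DOX4X libraries, 0.171, 0.243 and 0.368 CPM in DOX1X libraries, and 0.254, 0.367, 0.259 and 0.634 CPM in PBS libraries. The groups overlapped, and a difference was not detectable at this depth (log2 fold change -0.70, SE 0.67, edgeR adjusted p = 0.71 for DOX4X over PBS, and -1.53 with flow cell as a term). Within the counts of Paqr5 to Paqr9 together, Paqr5 took 5.02% ± 0.437 in DOX4X, 4.91% ± 1.22 in DOX1X and 8.36% ± 1.87 in PBS libraries. The ratio of Paqr7 to Paqr5 counts was 9.06 ± 1.11 in DOX4X, 9.17 ± 2.65 in DOX1X and 5.67 ± 1.5 in PBS libraries. These values are not independent of the choice of Paqr5.

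Adipor1, the adiponectin receptor linked to AMP-activated kinase, was at 147, 169, 143 and 166 CPM in DOX4X libraries, 163, 163 and 157 CPM in DOX1X libraries, and 169, 157, 161 and 156 CPM in PBS libraries. The ranges overlapped, with log2 fold changes of -0.04 (SE 0.07, edgeR adjusted p = 0.86) for DOX4X over PBS and -0.00064 (SE 0.08, edgeR adjusted p = 0.998) for DOX1X over PBS. With flow cell as a term the DOX4X over PBS value was 0.0158 and the DOX1X over PBS value 0.0177, so no direction is given for Adipor1.

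Adipor2, the receptor linked to the fatty acid sensor PPAR alpha, was at 25.5, 27.7, 23.9 and 21.3 CPM in DOX4X libraries, 24.1, 22.4 and 20.9 CPM in DOX1X libraries, and 17.6, 20.3, 21.4 and 21.5 CPM in PBS libraries. The ranges overlapped, since DOX4X 4 lay below PBS 4, and the log2 fold change was 0.29 (SE 0.10, edgeR adjusted p = 0.26) for DOX4X over PBS and 0.15 (SE 0.11, edgeR adjusted p = 0.772) for DOX1X over PBS. With blood-cell markers as a covariate, the value was 0.129 for DOX4X over PBS and -0.0329 for DOX1X over PBS, so the direction for DOX1X turned. With flow cell as a term the DOX4X over PBS value was 0.44. The ratio of Adipor1 to Adipor2 counts was 6.40 ± 0.928 in DOX4X, 7.17 ± 0.36 in DOX1X and 8.03 ± 1.06 in PBS libraries, with overlapping ranges.

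Paqr3, which tethers Raf kinases at the Golgi, was at 5.23, 3.60, 5.11 and 3.52 CPM in DOX4X libraries, 3.69, 3.64 and 4.52 CPM in DOX1X libraries, and 4.57, 4.94, 4.56 and 4.94 CPM in PBS libraries. All DOX1X libraries lay below all PBS libraries, and the DOX4X libraries lay on both sides of them. Its log2 fold change was -0.12 (SE 0.18, edgeR adjusted p = 0.828) for DOX4X over PBS and -0.27 (SE 0.20, edgeR adjusted p = 0.772) for DOX1X over PBS. For DOX4X over PBS a flow cell term gave -0.424 and the blood-cell covariate -0.0374. Paqr3 shares 15.7% of its exon bases with Bmp2k, and the kit does not mark strand, so the reads there cannot be assigned to 1 gene.

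Paqr4, a Golgi member of the family, was at 19.3, 22.4, 19.5 and 21.8 CPM in DOX4X libraries, 20.9, 22.6 and 18.0 CPM in DOX1X libraries, and 27.7, 25.7, 20.8 and 22.2 CPM in PBS libraries. The ranges overlapped, and the log2 fold change was -0.22 (SE 0.11, edgeR adjusted p = 0.428) for DOX4X and -0.23 (SE 0.12, edgeR adjusted p = 0.726) for DOX1X over PBS, and it was 0.0554 for DOX4X over PBS with flow cell as a term. Paqr4 shares 12.1% of its exon bases with Pkmyt1, with the same limit.

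All 9 members were tested, and Paqr5 is left out of the following counts because it was chosen for its difference. Of the other 8 members, 6 had a log2 fold change below 0 and 2 above 0 in DOX4X over PBS, against 47.8% of all genes below 0. The same counts held for DOX1X over the same PBS libraries, against 48.8% of all genes below 0. The median over these 8 was -0.169 for DOX4X and -0.249 for DOX1X over PBS, beside 0.0135 and 0.00573 over all genes tested. In DOX4X over PBS edgeR called 0 of the 8 (0.146% of all genes) and 3 (Paqr7, Paqr8 and Adipor2) had an unadjusted p under 0.05 (13.9% of all genes). DESeq2 called 1 of the 8 (Paqr7, against 3.36% of all genes) and limma-voom 0 (0.314% of all genes). In that comparison 0 of the 8 lay wholly below PBS (4.68% of all genes) and 0 wholly above (3.17%). In DOX1X over PBS edgeR called 0 of the 8 (0.00561% of all genes), and Paqr7 had an unadjusted p under 0.05 (7.16% of all genes). In that comparison DESeq2 called 0 of the 8 (0.23% of all genes) and limma-voom 0 (0.00561%). Paqr3, Paqr7 and Paqr8 lay wholly below PBS there, against 3.82% of all genes. Between DOX4X and DOX1X edgeR called 0 of the 8 (0.00561% of all genes), and 0 had an unadjusted p under 0.05 (4.36% of all genes). DESeq2 called 0 of the 8 between these groups (0.157% of all genes) and limma-voom 0 (0.00561%). There 0 lay wholly below (2.79% of all genes) and 0 wholly above (3.19%), and the fitted values ran from -0.17 (Paqr6, SE 0.73) to 0.14 (Paqr3, SE 0.20).

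**Figure D4:**
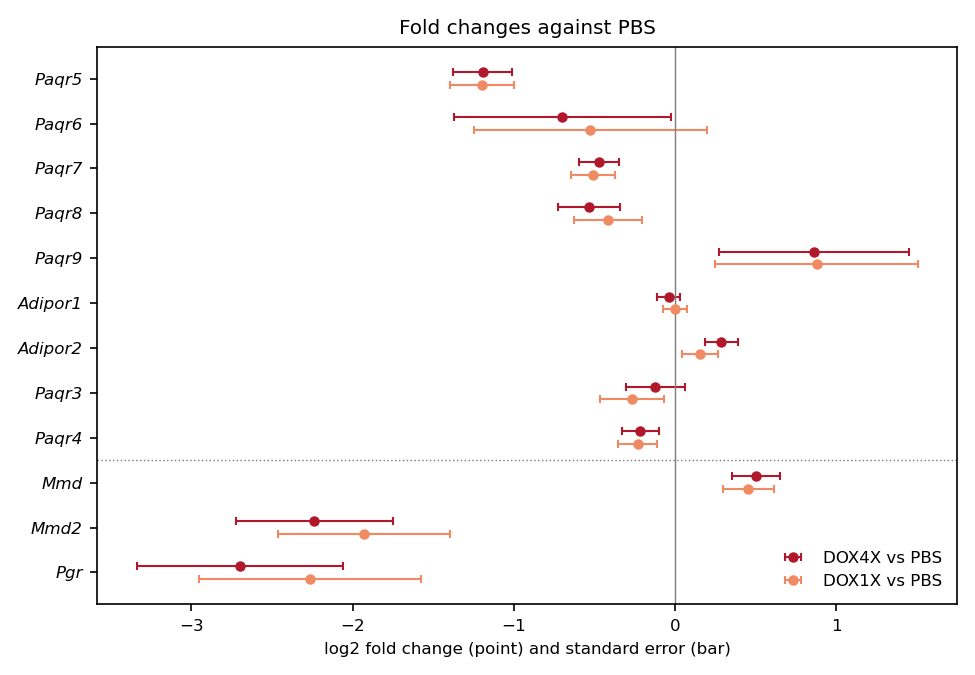
Log2 fold change (point) and SE (bar) of the 9 members and, below the dotted line, of Mmd, Mmd2 and Pgr, for DOX4X over PBS and DOX1X over PBS. Among the 9 members, Paqr5 lies lowest, at -1.19 for DOX4X and -1.20 for DOX1X.

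The distant family members Mmd and Mmd2 and the nuclear progesterone receptor Pgr were described whatever their values. Mmd2 was at 6.97, 4.10, 7.37 and 10.3 CPM in DOX4X libraries, 4.65, 3.18 and 18.8 CPM in DOX1X libraries, and 25.3, 31.2, 47.0 and 32.1 CPM in PBS libraries. Every doxorubicin library lay below every PBS library. Against PBS that holds for 4.68% of all genes in DOX4X and for 3.82% in DOX1X. The Mmd2 log2 fold change was -2.24 (SE 0.49, edgeR adjusted p = 0.108) for DOX4X and -1.93 (SE 0.53, edgeR adjusted p = 0.58) for DOX1X over PBS. DOX1X 3 stood apart from its group: without it, edgeR called Mmd2 between DOX4X and PBS at an adjusted p of 0.027. On flow cell 1 alone, the DOX1X over PBS value was -3.11 (edgeR adjusted p = 0.0358). For DOX4X over PBS, the Mmd2 value was -4.50 with flow cell as a term (edgeR adjusted p = 0.0384). That term rests on DOX1X 3, at 18.8 CPM, against DOX1X 1 and DOX1X 2, at 4.65 and 3.18 CPM. In the same comparison the adjusted p for Mmd2 was 0.0256 with limma-voom and 0.00391 with DESeq2. The Mmd2 value was -1.72 with the blood-cell covariate (edgeR adjusted p = 0.302).

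Pgr was at 0.303, 0.0878, 0.150 and 0.436 CPM in DOX4X libraries, 0.0979, 0.303 and 0.605 CPM in DOX1X libraries, and 0.558, 1.34, 2.04 and 2.57 CPM in PBS libraries. All DOX4X libraries lay below all PBS libraries, as for 4.68% of all genes, and DOX1X 3 lay above PBS 1. It rested on 3 to 16 counts per library in DOX4X, 4 to 23 in DOX1X and 22 to 77 in PBS. Its log2 fold change was -2.70 (SE 0.64, edgeR adjusted p = 0.126) for DOX4X over PBS and -2.26 (SE 0.69, edgeR adjusted p = 0.596) for DOX1X over PBS. A flow cell term gave -4.31 for DOX4X over PBS and -3.02 for DOX1X over PBS. Mmd, a monocyte to macrophage differentiation gene, was at 97.2 ± 14.9 CPM in DOX4X, 94.0 ± 17.0 in DOX1X and 68.7 ± 11.1 in PBS libraries. The log2 fold change was 0.50 (SE 0.15, edgeR adjusted p = 0.186) for DOX4X over PBS and 0.45 (SE 0.16, edgeR adjusted p = 0.606) for DOX1X over PBS, and for DOX4X over PBS it was 0.97 with flow cell as a term. Mmd shares exon bases with Gm45716 and Gm45883.

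**Figure D5:**
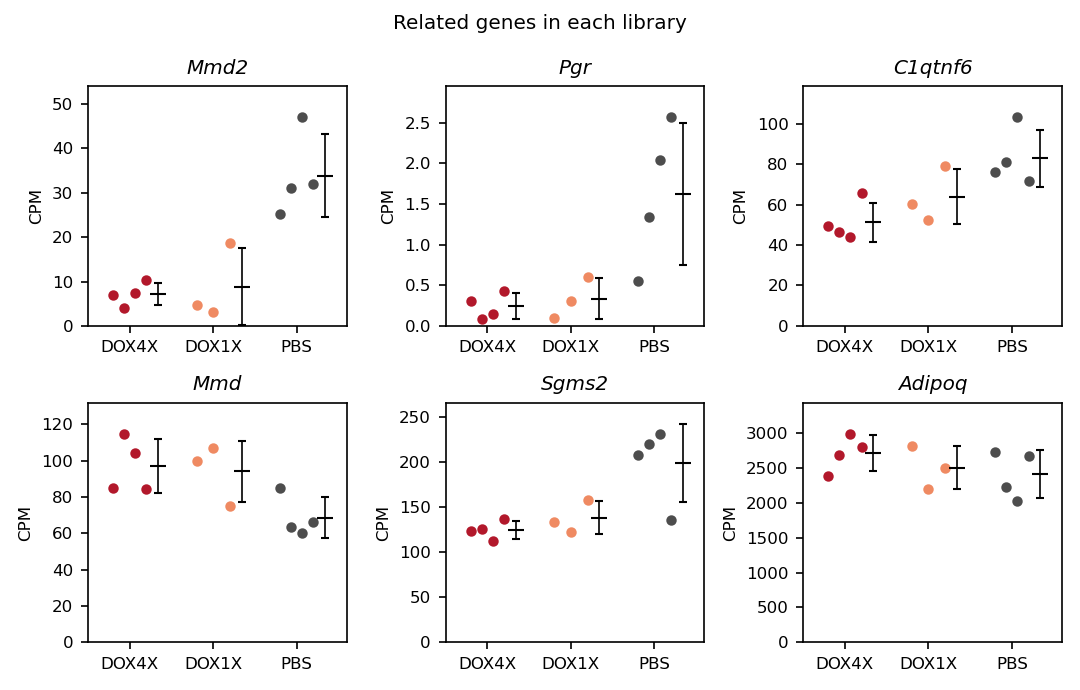
Levels of Mmd2, Pgr, C1qtnf6, Mmd, Sgms2 and Adipoq in every library (CPM), with DOX4X left, DOX1X in the middle and PBS right; bars are mean ± SD. All DOX4X and DOX1X points of Mmd2 lie below the lowest PBS point, 25.3 CPM. Of all genes, 4.68% lie wholly below PBS in DOX4X and 3.82% in DOX1X.

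Of 100 genes listed for adiponectin, progestin and ceramide pathways and the Paqr3 partners, 86 were tested. In DOX4X over PBS edgeR called 0 of them (0.146% of all genes), and 7 higher and 9 lower had an unadjusted p under 0.05, against 13.9% of all genes. DESeq2 called 6 of them and 599 of all genes (3.36%), and limma-voom called 2 of them and 56 of all genes (0.314%). The 22 adiponectin axis genes had a median log2 fold change of 0.076, the 19 progestin axis genes -0.0806, the 29 ceramide genes -0.0173 and the 14 Paqr3 partners -0.0758, beside 0.0135 over all genes. Under a flow cell term the progestin median was 0.0516 and the ceramide median 0.0976, so both signs turned. In DOX1X over PBS edgeR called 0 pathway genes (0.00561% of all genes), and 2 higher and 8 lower had an unadjusted p under 0.05 (7.16%). DESeq2 called 0 of them there (0.23% of all genes) and limma-voom 0 (0.00561%). Between DOX4X and DOX1X edgeR called 0 (0.00561% of all genes), and 4 higher and 2 lower had an unadjusted p under 0.05 (4.36%). DESeq2 called 1 between these groups (28 of all genes, 0.157%) and limma-voom 0 (0.00561%). Adipoq, the hormone itself, was at 2710 ± 252 CPM in DOX4X, 2499 ± 304 in DOX1X and 2408 ± 343 in PBS libraries (log2 fold change 0.17 for DOX4X over PBS, edgeR adjusted p = 0.575). Pgrmc1, a progesterone-binding membrane protein, was at 431 ± 44.5 CPM in DOX4X, 429 ± 17.1 CPM in DOX1X and 439 ± 26.9 CPM in PBS libraries. Pgrmc2, its relative, was at 83.5 ± 6.73 CPM in DOX4X, 83.0 ± 7.38 CPM in DOX1X and 80.6 ± 7.87 CPM in PBS libraries. Cdh13, which binds adiponectin as T-cadherin, was at 3.61 ± 2.00 CPM in DOX4X, 4.92 ± 2.37 CPM in DOX1X and 3.80 ± 1.62 CPM in PBS libraries. The log2 fold change for DOX4X over PBS was -0.03 for Pgrmc1 (SE 0.08, edgeR adjusted p = 0.928), 0.05 for Pgrmc2 (SE 0.09, edgeR adjusted p = 0.864) and -0.07 for Cdh13 (SE 0.47, edgeR adjusted p = 0.969).

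The genes of each list with the smallest p in DOX4X over PBS are given by their log2 fold changes. Values below 0 were found for C1qtnf6, an adiponectin relative (-0.69, SE 0.16, edgeR adjusted p = 0.125), Akr1c14, a steroid-reducing enzyme (-0.48, SE 0.12, edgeR adjusted p = 0.133), Sgms2, a sphingomyelin synthase (-0.67, SE 0.15, edgeR adjusted p = 0.112), Insig2, which holds Scap in the endoplasmic reticulum (-0.36, SE 0.13, edgeR adjusted p = 0.259), and Srebf2, the sterol transcription factor (-0.23, SE 0.14, edgeR adjusted p = 0.489). Values above 0 were found for Cers6, a ceramide synthase (0.69, SE 0.20, edgeR adjusted p = 0.186), and C1qtnf7, another adiponectin relative (0.50, SE 0.18, edgeR adjusted p = 0.253). Sgms2 averaged 125 ± 9.76 CPM in DOX4X, 138 ± 18.2 CPM in DOX1X and 199 ± 42.9 CPM in PBS libraries, where PBS 4 had 136 CPM and the other PBS libraries 207.5 to 231.5 CPM. Without PBS 4, edgeR called Sgms2, at an adjusted p of 0.00689. With flow cell as a term, Srebf2 was at 0.0374, Cers6 at 1.18 and C1qtnf6 at -1.18. With the blood-cell covariate, Cers6 was at 0.241. None passed the threshold in the test of all libraries. DESeq2 called Akr1c14, C1qtnf6, Cers6, Mmd, Mmd2 and Sgms2. C1qtnf6 shares 4.33% of its exon bases with Gm49490.

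Marker genes of other marrow cells were summed in each library, and no marker in the table was at 0 in all libraries. The neutrophil sum was 239 to 962 CPM in DOX4X, 224 to 837 CPM in DOX1X and 167 to 580 CPM in PBS libraries, with 9 of 12 markers above 0 in log2 fold change for DOX4X over PBS and 12 of 12 for DOX1X over PBS (median 1.61). The macrophage sum was 311 to 501 CPM in DOX4X, 367 to 378 CPM in DOX1X and 313 to 453 CPM in PBS libraries. Of 11 macrophage markers, 6 were above 0 in log2 fold change for DOX4X over PBS and 5 for DOX1X over PBS. The osteoblast sum was 12500 to 16600 CPM in DOX4X, 16600 to 22600 CPM in DOX1X and 17200 to 30500 CPM in PBS libraries. PBS 4, at 17200 CPM, lay within the DOX1X range, and the other PBS libraries were at 28100 to 30500 CPM. Of 12 osteoblast markers, 11 were below 0 in log2 fold change for DOX4X over PBS and 10 for DOX1X over PBS. In DOX4X over PBS 1 of them was called (0.146% of all genes). The adipocyte sum, over the 10 of 12 markers analysed, was 6820 to 8410 CPM in DOX4X, 5580 to 7570 CPM in DOX1X and 5090 to 6670 CPM in PBS libraries. All 8 tested adipocyte markers were above 0 for DOX4X over PBS (median 0.471), and 3 of 8 for DOX1X over PBS. The endothelial sum was 455 to 822 CPM in DOX4X, 193 to 329 CPM in DOX1X and 150 to 513 CPM in PBS libraries. All 12 endothelial markers were above 0 for DOX4X over PBS (median 0.813) and below 0 for DOX1X over PBS (median -0.539). The B lineage sum was 84.4 to 234 CPM in DOX4X, 74.7 to 114 CPM in DOX1X and 37.8 to 86.2 CPM in PBS libraries. All 11 B lineage markers were above 0 for DOX4X over PBS (median 1.14) and for DOX1X over PBS (median 0.788). Markers of neutrophils, macrophages, B lineage and red cells together formed the blood-cell covariate used above. Osteoblast, adipocyte and endothelial markers were in no model. The cause of the values of the PAQR members was not tested.

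The genes whose levels over the 11 libraries were most like those of Paqr5, out of 12640 searched, were Ptpn13 (Pearson r of log2 CPM 0.933), Htra4 (0.929), Mmp13 (0.922), Trpc1 (0.916) and Tacc1 (0.912). Ptpn13, a protein tyrosine phosphatase, averaged 80.3 ± 5.54 CPM in DOX4X, 89.1 ± 8.03 CPM in DOX1X and 115 ± 11.9 CPM in PBS libraries. Mmp13, a collagenase of bone, averaged 1561 ± 330 CPM in DOX4X, 2060 ± 486 CPM in DOX1X and 3770 ± 488 CPM in PBS libraries. The libraries share the group difference and their depth, and these values are a description with no p. Those most like Paqr7 were Lrpap1 (0.946) and Asah1 (0.945), and those most like Paqr8 were Rfx5 (0.936) and Map2k6 (0.929). Asah1 is acid ceramidase. For Adipor1 they were Zmat1 (0.908) and Nphp4 (0.894), for Adipor2 Cep152 (0.925) and Nfkbid (0.909), for Paqr3 Zfp407 (0.874) and Cwf19l2 (0.86), for Paqr4 Hmox2 and Cggbp1 (0.959 each), and for Paqr6 Ssc5d (0.898) and Sgms1 (0.889).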

How the data were processed

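RNA of 11 libraries was analysed. The authors deposited raw counts of reads for each gene. The submitters' processing notes name STAR 2.7.9a and featureCounts 2.0.1, with Trim Galore 0.6.6, on the build GRCm39. Whether counting used strand or multi-mapping reads is not given in the sources used here. Counts were filtered with filterByExpr of edgeR 4.0.16 in R 4.3.3, which kept 17838 genes and at least 99.9% of the counts, scaled with TMM and fitted for all libraries with group means. Groups were compared by the two-sided quasi-likelihood test of edgeR. P-values were adjusted by Benjamini-Hochberg over the 17838 genes, and genes under 0.05 were called. Alternatives used DESeq2 1.42.0 and limma 3.58.1. TPM used exon lengths of GENCODE on GRCm38, found for 23792 of 24718 symbols. The script was tested on simulated data. Replicates are separate mice per the labels. The named genes were the members, Adipoq, Cdh13, Pgr, Pgrmc1, Pgrmc2, Mmd and Mmd2, the 2 genes of each list with the smallest p, and the genes most like each member. The members and lists were chosen with earlier results of these data known. Correlations of the deviations of same-numbered libraries were -0.119 to 0.0765 for DOX4X and PBS, -0.0296 to 0.0957 for DOX1X and PBS, and 0.084, 0.167 and 0.347 for DOX4X and DOX1X. Since 1 or more pairs of each comparison lay at or under 0.1, the numbers were not taken to pair the samples.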

Additional observations from a re-analysis of the deposited data

Results flagged for a closer look

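In 48 groups of 4 libraries (24 genes), 3 held a library far from the others, and chance flags about 5% of groups. Pgrmc1 was at 479 CPM in PBS 4, next to 430 CPM in the nearest PBS library. Akr1c14 was at 110 CPM in PBS 4, next to 82.6 CPM. C1qtnf7 was at 37.3 CPM in PBS 1, next to 21.9 CPM. PBS 4 is the library whose title and treatment label disagree.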

How the results depend on the processing

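Counts of calls depended on the tool and the design. In DOX4X over PBS edgeR called 1 of the 9 PAQR members (Paqr5); DESeq2 called 2, of 599 genes in all, and 0 were called with only the compared groups, the replicate block, a blood-cell marker covariate or a flow cell term. Leaving out 1 library gave 0 to 1, with 0 without any of DOX4X 1 to 4, DOX1X 1 or 2, or PBS 1, 2 or 3, and 1 without PBS 4 or DOX1X 3. In DOX1X over PBS DESeq2 called 1 member, of 41 genes in all (0.23%). That member was Paqr5, for which the family was picked. Of the pathway genes (0 in the main test), DOX4X over PBS gave 6 with DESeq2 (3.36% of all genes) and 2 with limma-voom (0.314%). It gave 1 with a flow cell term (0.0336% of all genes) and 0 to 1 with a library left out. DOX1X over PBS gave 1 on flow cell 1 alone, of 5 genes in all. DOX4X over DOX1X gave 1 with DESeq2, of 28 genes in all (0.157%). The replicate numbers were not taken to pair the samples, and the replicate block lowered all calls between DOX4X and PBS to 10, against 26. Over all genes that total was 599 with DESeq2, 56 with limma-voom, 6 with a flow cell term, 2 with the blood-cell covariate, 1 with only the compared groups and 0 to 80 with a library left out. Some log2 fold changes turned sign. The Paqr9 value for DOX1X over PBS, at 0.88 in the main test, was among them. With the blood-cell covariate: Paqr9 -0.11 (DOX1X over PBS) and 0.126 (DOX4X over DOX1X), Adipor2 -0.0329 (DOX1X over PBS), Pgrmc2 -0.0417 and Pgrmc1 0.0477 (DOX4X over PBS). With a filter of 5 CPM: Pgrmc1 0.00364 (DOX4X over PBS) and Adipor1 0.0271 (DOX1X over PBS). On flow cell 1: Adipor1 0.0149 (DOX1X over PBS). On flow cell 2, with DOX1X 3 as the lone DOX1X library: Paqr5 -0.163, Paqr3 -0.0466, Paqr9 1.18 and Adipor1 0.000154 (DOX4X over DOX1X). With a flow cell term: Srebf2 0.0374, Paqr4 0.0554, Adipor1 0.0158 and Cdh13 1.41 (DOX4X over PBS), Adipor1 0.0177 (DOX1X over PBS), Paqr3 -0.0508, Paqr5 -0.166 and Paqr9 1.17 (DOX4X over DOX1X). With limma-voom: Adipor1 0.0106 (DOX1X over PBS), Mmd2 0.341, Mmd -0.0213, Paqr7 -0.00278 and Pgr 0.226 (DOX4X over DOX1X). For DOX1X over PBS, Adipor1 was 0.00147 with only the compared groups, 0.00603 with the replicate block and 0.00347 with upper quartile factors. For DOX4X over DOX1X, the replicate block gave Paqr5 -0.0166 and Paqr9 0.289. Over PBS, Paqr5 with the replicate block was -1.18 for DOX4X and -1.16 for DOX1X. With a library left out, ranges that crossed 0 were, for DOX1X over PBS, Adipor1 -0.0148 to 0.0182; for DOX4X over PBS, Adipor1 -0.0706 to 0.00105, Cdh13 -0.45 to 0.221, Pgrmc1 -0.0784 to 0.0351 and Pgrmc2 -0.0146 to 0.0926; for DOX4X over DOX1X, Adipor1 -0.0783 to 0.00115, Mmd -0.0939 to 0.153, Mmd2 -0.708 to 0.869, Paqr4 -0.0698 to 0.0922, Paqr5 -0.141 to 0.0958, Paqr6 -1.17 to 0.201, Paqr7 -0.0938 to 0.103, Paqr8 -0.354 to 0.0109, Paqr9 -0.374 to 0.393 and Pgr -0.882 to 0.323. The medians of the progestin (0.0516) and ceramide (0.0976) lists for DOX4X over PBS also turned sign with a flow cell term. The cause was not tested. Pgr and Paqr6 could not be tested under the 5 CPM filter, Paqr6 not with only DOX4X and PBS or only DOX4X and DOX1X fitted (8 members tested in each), and DESeq2 gave no adjusted p for either in DOX4X over PBS. No value within 1 flow cell exists for DOX4X over PBS.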

Other observations

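Acer2, an alkaline ceramidase of the Golgi, was chosen after its values were seen. It was at 16.2, 13.9, 14.5 and 12.02 CPM in DOX4X libraries, 8.56, 7.04 and 7.96 CPM in DOX1X libraries, and 13.7, 10.1, 7.90 and 12.01 CPM in PBS libraries. All DOX4X libraries lay above all DOX1X libraries, as for 3.19% of all genes, and the log2 fold change was 0.85 (SE 0.19, edgeR adjusted p = 0.886). DESeq2 gave an adjusted p of 0.0173 and limma-voom 0.287, and over all 12 other settings the adjusted p was 0.0173 to 0.924. Dose and number of injections both differ between these groups.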
